A study of Mus musculus with 16 samples.

Results

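A set of 42 genes stood far higher in Fam134b KO than in WT C2C12 cells both before and after differentiation. Their members were chosen from the measured values: the mean log2(normalized count + 1) had to exceed WT by at least 2 in myoblasts and again in myotubes, and the mean normalized count had to reach 20 in both KO groups. Symbols starting with Col, Hist, Hox, Zfp, Kcn or Slc, other than Slc1a3, were to be left out, which removed none. Of 31053 gene rows, 42 met this rule, and all 42 were among the 10767 genes tested. C2C12 is an established mouse myoblast line, and 16 mRNA libraries were made from 4 groups of 4 replicates each. These were undifferentiated WT cells (WT myoblasts), undifferentiated KO cells (KO myoblasts), differentiated WT cells (WT myotubes) and differentiated KO cells (KO myotubes). All were grown in DMEM with 10% FBS, and myotubes formed spontaneously on confluency. KO cells were made with a lentiviral CRISPR-Cas9 vector built for a pair of guides, and the study lists 4 guides against Fam134b. The KO cells were selected with blasticidin and neomycin. Which guides they carried, whether they are a single clone, and whether WT cells carried a vector, is not given in the sources used here. Genotype and stage were read from the sample titles, since the genotype field holds no genotype. The study calls its replicates independent and biological, but whether the 4 samples of a group came from separate cultures is not given in the sources used here, so p-values measure only the spread between these samples.

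Fam134b is a membrane-shaping receptor of the endoplasmic reticulum (ER) that hands fragments of this compartment to autophagosomes for lysosomal degradation, a route called ER-phagy. Myoblasts are cycling muscle precursors that leave the cell cycle, switch on contractile genes and fuse into multinucleated myotubes, with a wide remodelling of ER, matrix and surface proteins. Glutamate uptake, complement proteolysis, chemokine signalling and homeobox control, which the set includes, are better known from other tissues than from muscle cells.

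The targeted gene was checked first. Fam134b lay at 149.7 to 251 normalized counts in WT and 23.4 to 35.6 in KO myoblasts, and at 146 to 287 in WT and 28 to 56.9 in KO myotubes. Its transcript was lower in KO cells by a log2 change of -2.86 ± 0.26 (SE; limma adjusted p = 2.95e-08) in myoblasts and -2.46 ± 0.26 (adjusted p = 9.85e-07) in myotubes, and the genotypes did not overlap. Reads on genes ran from 1484750 to 3287461 per library, and the lowest were KO myotube replicates 4 and 2 (1484750 and 1790524). One read was therefore worth between 0.83 and 2.0 normalized counts, so that WT values of a few normalized counts rest on a handful of reads. Endothelial markers summed to at most 2.59 normalized counts in any library.

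Every one of the 42 genes had all 4 KO libraries above all 4 WT libraries at both stages, which happened for 12.8% of all genes tested in myoblasts and for 8.52% in myotubes. The rule chose the genes for this contrast, so these values are a description and nothing was tested or read from them. The KO minus WT difference in mean log2 values ranged from 2.05 (Pid1) to 5.75 (Slc1a3) in myoblasts, with a median of 3.16, and from 2.04 (Nhsl2) to 6.66 (Aff3) in myotubes, with a median of 3.03. The medians over all genes tested were -0.01 and -0.07. In myoblasts 23 of the 42 differed by 3 or more and 10 by 4 or more; in myotubes these numbers were 21 and 9. The difference was larger in myoblasts for 20 genes and in myotubes for 22. In 7 genes every WT myoblast library, and in 3 every WT myotube library, held 3 reads or fewer, and their differences depend on the pseudocount of 1. In bulk RNA, fewer cells of a type and less RNA per cell cannot be told apart.

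**Figure D1:**
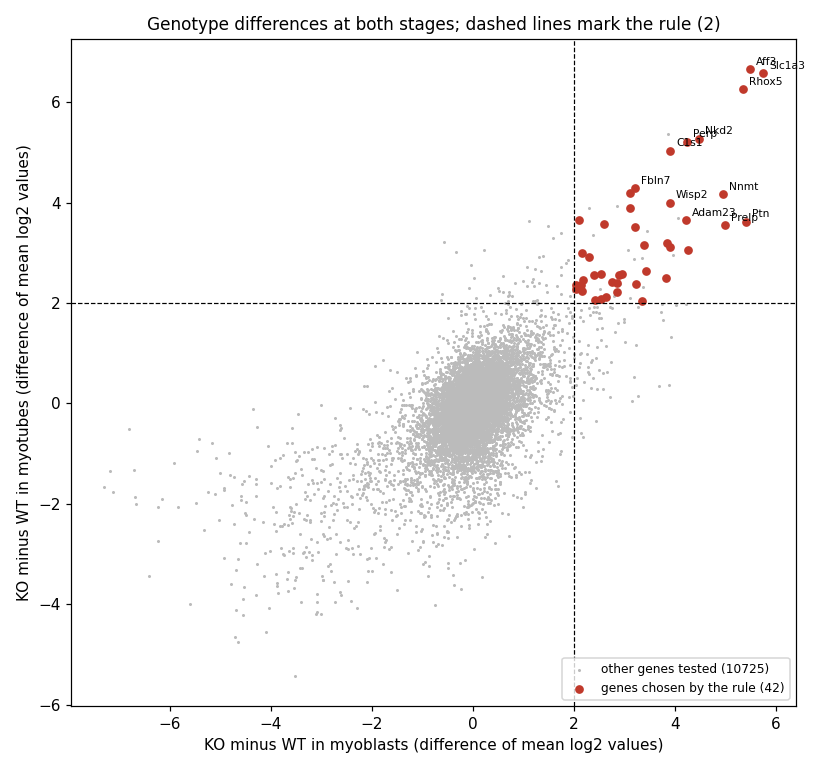
Each point is a gene tested, placed by its KO minus WT difference of mean log2(normalized count + 1) in myoblasts (x axis) and myotubes (y axis). The 42 chosen genes (red) lie beyond 2 on both axes by construction, with Slc1a3, Aff3 and Rhox5 at the far corner, and grey points in the same corner fell short of the level of 20.

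Genes near the limits differed little from their neighbours on the other side. Just inside the myoblast limit lay Pid1, Aspn and Mrgprf (2.05, 2.05 and 2.11), and just outside Gstm2, Wdr27 and Akap12 (1.92, 1.76 and 1.74). In myotubes Nhsl2, Plcb1 and Ass1 (2.04, 2.07 and 2.07) were just inside, and Ly6a, Cdsn and Sdpr (1.99, 1.99 and 1.92) just outside. Adgrf5, Nhsl2 and Ccdc60 passed the level of 20 most narrowly, while Hmcn2, Prkd1 and Kif5a met both differences but not the level.

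By GENCODE M21 positions (mm10, GRCm38), the genes lie on 13 chromosomes, unevenly. Chromosome 6 holds 6 of them (14.3%, against 4.86% of all genes tested), chromosomes 1, 2, 5 and X hold 5 each, and chromosomes 3, 4, 8, 11, 12, 14 and 18 hold none. The 5 X-linked genes (Rhox5, Nhs, Arxes2, Capn6 and Nhsl2) are 11.9% of the 42, against 3.05% of all genes tested. C1ra and C1s1, which encode the 2 serine proteases of the first complement component, are 6.90 kb apart on chromosome 6 in opposite orientation, with no other gene row between them. Cxcl5 and Cxcl1 are 130 kb apart on chromosome 5, with 5 gene rows but no tested gene between them. Among the 79 nearest tested neighbours, 7 (8.86%: C1rl, Ada, Fmod, Ly6a, Rab36, Bhlhb9 and Hmcn2) were higher in KO by at least 1 on the log2 scale at both stages, against 1.83% of the 10719 tested and placed genes that were not members.

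Promoter windows of 300 bases (250 before and 50 after the RefSeq start, GRCm38.p6) were available for 31 of the 42 genes, 37 windows in all. CG dinucleotides, the sites of DNA methylation, numbered 0 to 54 per window with a median of 8, against a median of 21 in the 11051 windows of all genes tested. The window with 54 belongs to Aff3, whose RefSeq start lies 43 bases from a GENCODE transcript start but 37.7 kb from the GENCODE gene start, and that of Rhox5 lies 50.2 kb from any GENCODE start. In the 26 members' windows whose start lies within 500 bases of the GENCODE gene start, the number was 0 to 31 with a median of 11, against 22 in the 8382 such windows of all genes tested. The upstream 250 bases are shown for the gene with the largest difference in myoblasts, for the adjacent complement genes, and for Nkd2 as a CG-rich contrast, since these genes differ in how many CG sites precede their starts. They are written 5′ to 3′ on the gene's strand with each CG in capitals. Slc1a3 (chr15:8710808-8711057, minus strand, 2 CG), C1ra (chr6:124512371-124512620, plus strand, 5 CG), C1s1 (chr6:124542360-124542609, minus strand, 1 CG) and Nkd2 (chr13:73847632-73847881, minus strand, 14 CG) read as follows.
Slc1a3: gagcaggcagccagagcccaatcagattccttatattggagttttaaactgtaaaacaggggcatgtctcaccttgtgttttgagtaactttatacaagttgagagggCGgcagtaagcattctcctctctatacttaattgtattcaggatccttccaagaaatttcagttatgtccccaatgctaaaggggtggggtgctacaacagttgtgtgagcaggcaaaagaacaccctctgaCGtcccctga
C1ra: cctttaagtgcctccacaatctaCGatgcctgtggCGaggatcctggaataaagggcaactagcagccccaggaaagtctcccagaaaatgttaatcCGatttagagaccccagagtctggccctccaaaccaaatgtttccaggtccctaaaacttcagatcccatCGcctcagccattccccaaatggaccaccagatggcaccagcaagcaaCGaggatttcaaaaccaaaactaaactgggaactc
C1s1: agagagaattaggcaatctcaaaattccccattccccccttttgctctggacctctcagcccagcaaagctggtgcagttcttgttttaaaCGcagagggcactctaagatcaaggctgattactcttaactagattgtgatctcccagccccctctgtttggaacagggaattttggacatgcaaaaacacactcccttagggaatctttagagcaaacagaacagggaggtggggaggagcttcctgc
Nkd2: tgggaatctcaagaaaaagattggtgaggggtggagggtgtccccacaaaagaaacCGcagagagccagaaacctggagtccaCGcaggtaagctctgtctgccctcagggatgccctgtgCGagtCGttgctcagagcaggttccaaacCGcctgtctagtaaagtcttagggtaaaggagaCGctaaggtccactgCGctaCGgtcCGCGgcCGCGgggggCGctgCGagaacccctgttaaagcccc
The RefSeq and GENCODE gene starts coincide for C1s1 and Nkd2, and differ by 43 bases for Slc1a3 and 216 for C1ra.

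Short motifs were searched on both strands. The E-boxes CAGCTG and CAGGTG, which myogenic and E-protein or Snail-type factors can bind, were in 13.5% and 10.8% of the members' windows, against 15.4% and 16.7% of all windows. The AP-1 motif TGACTCA was in 2.70% against 3.70%, and the TEAD motif GGAATG in 10.8% against 11.9%. Windows with several motifs count under each, and a match is a description of letters only.

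**Figure D2:**
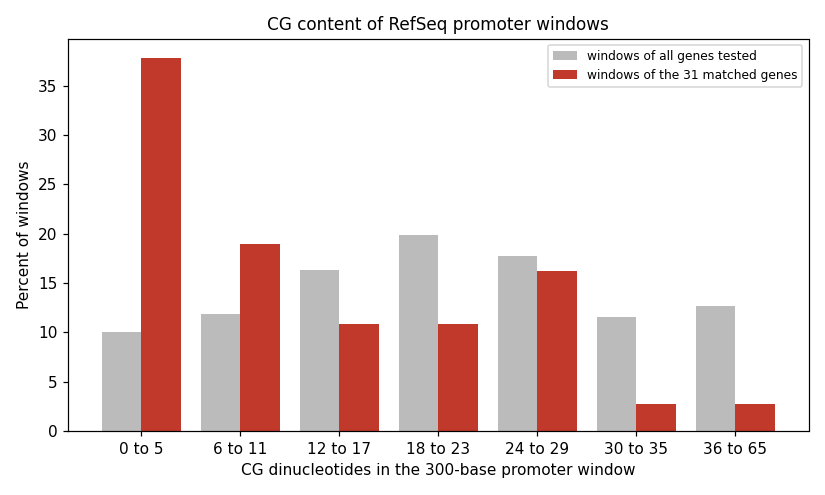
Percent of RefSeq promoter windows (y axis) by number of CG dinucleotides in the 300 bases (x axis), for the 31 matched genes (red, 37 windows) and all genes tested (grey, 11051 windows). Windows with 0 to 5 CG made up 37.8% for the chosen genes and 10.0% for all. Those with 30 to 35 CG made up 2.70% for the chosen genes and 11.5% for all, and those with 36 to 65 made up 2.70% and 12.7%.

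Slc1a3 (ENSMUSG00000005360, chromosome 15), the glial high-affinity transporter of glutamate and aspartate, ranked first by the smaller of its 2 differences. It was counted at 6.46, 15.4, 7.01 and 3.56 normalized counts in the WT myoblasts and 486, 330.4, 570.0 and 405 in the KO myoblasts. In the myotubes the values were 7.77, 3.6, 6.51 and 6.94 for WT and 897, 667, 525 and 631 for KO. Every KO library was far above every WT library, and the log2 differences were 5.75 in myoblasts and 6.58 in myotubes. Of the 17 other listed genes for glutamate transport and metabolism, 10 were tested for genotype with limma, and 3 rose in KO cells at each stage with none lower (background: 7.26% of genes higher in KO myoblasts, 9.74% in KO myotubes). The myoblast count was 1 with a filter minimum of 50, and the myotube count was 1 without WT myotube replicate 3, without KO myotube replicate 4 or in a fit of only the 8 samples compared. The neuronal-type transporter Slc1a6 rose by a log2 change of 3.37 ± 0.57, adjusted p = 1.73e-04 in myoblasts and 2.32 ± 0.57, adjusted p = 0.0053 in myotubes. Its mean normalized counts were low, at 1.43 in WT and 22.9 in KO myoblasts, and 0.473 in WT and 6.83 in KO myotubes. Both changes therefore depend on the pseudocount of 1, and Slc1a6 passed the filter through its KO libraries alone. The 3 genes called at each stage include it, so these counts are not read against the background. The neutral amino acid transporter Slc1a4 rose at both stages too (1.19 ± 0.26, adjusted p = 0.00265, and 0.75 ± 0.26, adjusted p = 0.0442). Its myotube call was lost in 9 of the fits without 1 library. The cystine-glutamate exchanger Slc7a11 rose in myoblasts only by the test (1.79 ± 0.43, adjusted p = 0.00586), and the mitochondrial glutamate dehydrogenase Glud1 in myotubes (0.46 ± 0.15, adjusted p = 0.0262); whether the stages differ for them was not tested. The Glud1 call was lost in 4 of the fits without 1 library. The other classical transporters Slc1a1 and Slc1a7 had no read in any library.

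Among nuclear proteins, Aff3, Rhox5, Nkx2-5, Vax2 and Lmcd1 were members. Aff3, of the AF4 family linked to transcription elongation, had 0, 0, 1.0 and 0 normalized counts in the WT myoblasts, 1 read in all, and 63.9, 26.6, 65.9 and 66.7 in the KO myoblasts. The WT myotubes held 0, 0.90, 0 and 0, again 1 read, and the KO myotubes 86.2, 140.1, 86.4 and 182. The transcript was thus close to undetected in WT libraries and present in all 8 KO libraries, and its log2 differences of 5.49 and 6.66 are set partly by the pseudocount. Of 10 tested relatives and partners in the super elongation complex, 1 rose and 1 fell in KO myoblasts (Mllt3, 0.77 ± 0.22, adjusted p = 0.0193, and Ell2, -1.18 ± 0.21, adjusted p = 2.31e-04), and 1 rose and 2 fell in KO myotubes (Mllt1, Ell2 and Eaf1). Of all genes tested, 7.26% rose and 8.5% fell in KO myoblasts, and 9.74% and 13.7% in KO myotubes, so these shares were near the background. The rise of Mllt3 in myoblasts was lost without WT myoblast replicates 1 or 4 or KO myoblast replicates 1, 3 or 4, and 0 to 3 of the list fell in myotubes without 1 library (0 without WT myotube replicate 4).

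Rhox5, a homeobox gene of the X-linked reproductive cluster known from testis, ovary and placenta, stood at 31.4, 16.4, 13 and 28.5 normalized counts in the WT myoblasts and 848, 1117, 852 and 813 in the KO myoblasts. It stood at 16.4, 26.1, 2.79 and 7.93 in the WT myotubes and 841, 794, 878 and 911 in the KO myotubes. The KO libraries ran from 813 to 1117 in myoblasts and from 794 to 911 in myotubes. The WT libraries held only 13 to 34 reads in myoblasts and 3 to 29 in myotubes, so the spread of the genotypes was not compared. Of the 35 listed X-linked reproductive and germline genes, 3 passed the filter on low values. Apart from Rhox5 these were Xlr3a and Xist, of which Xlr3a, a lymphocyte-regulated X-linked family member, fell in KO myoblasts (-2.65 ± 0.66, adjusted p = 0.00712), though it was not tested with a filter minimum of 50, and neither was called in myotubes. None of the listed cluster genes Rhox1, Rhox2a, Rhox4b, Rhox4e, Rhox6, Rhox8, Rhox9, Rhox11 and Rhox13 had a read in any library.

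Of the other homeobox genes, Nkx2-5, a cardiac transcription factor, had 5.54, 0.964, 2.0 and 4.46 normalized counts in WT and 66.5, 44.8, 59 and 57.6 in KO myoblasts. In myotubes it had 3.45, 5.4, 5.58 and 0 in WT and 43.6, 36.5, 20.7 and 28 in KO. Both stages were separated by genotype, as the rule chose. The KO myotubes lay narrowly below the KO myoblasts (highest 43.6, lowest 44.8), and limma did not call this change (-0.84 ± 0.51, SE, adjusted p = 0.215). Vax2, a homeobox gene of the ventral eye, had a log2 difference of 2.86 in myoblasts and 2.4 in myotubes. Lmcd1, a LIM-domain cofactor that restrains GATA factors, differed by 2.16 and 2.23, from a WT level that was already readily counted (28.8 ± 8.38 in WT and 134 ± 50.9 in KO myoblasts, SD, n = 4 in each).

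**Figure D3:**
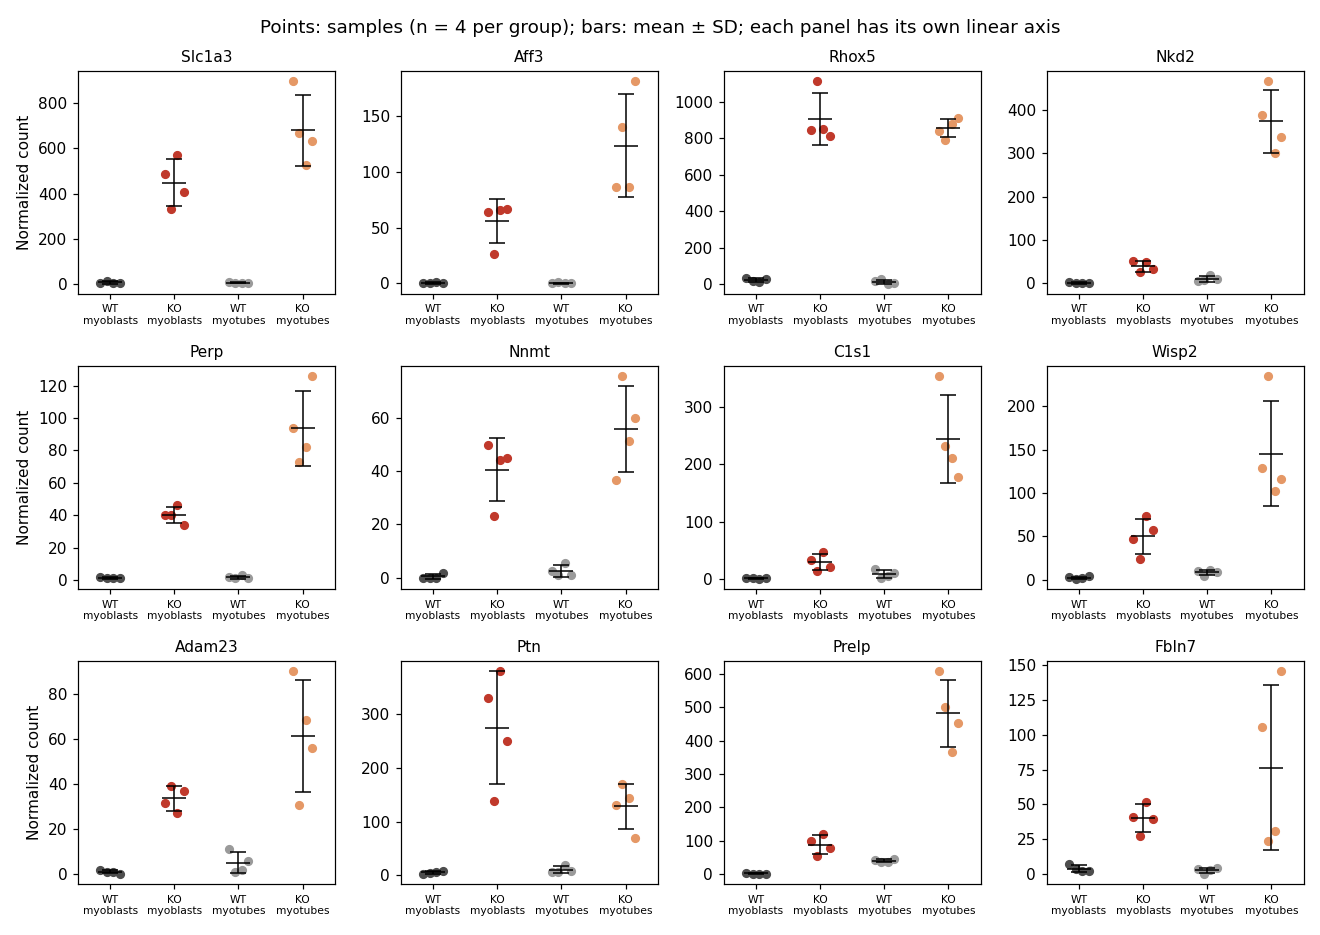
Normalized counts (y axis, linear, 1 scale per gene) of the 12 genes with the largest smaller-of-both difference in every sample of WT myoblasts, KO myoblasts, WT myotubes and KO myotubes; bars are mean ± SD, n = 4. No WT point reaches the KO points at its stage, and Nkd2, C1s1 and Prelp climb further in KO myotubes while Ptn lies lower there than in KO myoblasts.

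The secreted ligands were Ptn, Kitl, Cxcl5, Cxcl1 and Wisp2. Ptn encodes pleiotrophin, a heparin-binding growth factor, and had 2.77, 4.82, 6.0 and 8.02 normalized counts in the WT myoblasts and 331, 139, 380.0 and 250.3 in the KO myoblasts. In the myotubes it had 6.91, 5.4, 19.5 and 8.92 in WT and 132, 169, 144 and 69.9 in KO. The KO libraries were above the WT libraries throughout, and the difference was 5.4 in myoblasts and 3.62 in myotubes. Among 14 tested receptors, proteoglycans and relatives of the pleiotrophin and midkine pathway, 2 rose and 2 fell in KO myoblasts, and 1 rose and 2 fell in KO myotubes, beside 7.26% and 8.5%, and 9.74% and 13.7%, of all genes tested. The number that rose was unstable: in myoblasts it was 0 without WT replicate 4 or KO replicates 1 or 3, and in myotubes it ran from 0 to 4 without 1 library (4 without WT myotube replicate 1) and from 0 to 3 under the other settings. The syndecan Sdc2, a heparan sulfate co-receptor, rose at both stages (0.83 ± 0.23, adjusted p = 0.0163, and 0.68 ± 0.23, adjusted p = 0.0367), and the chondroitin sulfate proteoglycan versican (Vcan) rose in myoblasts (1.06 ± 0.32, adjusted p = 0.025). Sdc4 and Sdc1 fell in myoblasts, and the integrin subunits Itga4 and Itga6 fell in myotubes. Itga4 passed the filter through its WT myotubes, with means of 34.9 normalized counts there and 5.97 in KO myotubes. The kinase receptor Alk had no read in any library.

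Kitl, the stem cell factor that binds the Kit receptor, had 18.5, 22.2, 14 and 13.4 normalized counts in WT and 147, 124, 188 and 158 in KO myoblasts. In myotubes it had 6.91, 9.9, 19.5 and 17.8 in WT and 225, 286, 254 and 226 in KO, and no library of one genotype reached the other. The neutrophil-attracting chemokines Cxcl5 and Cxcl1 differed by 3.39 and 2.85 in myoblasts and by 3.15 and 2.22 in myotubes. In KO cells Cxcl5 ranged from 59.5 to 122 normalized counts in myoblasts and from 45.9 to 111 in myotubes, and Cxcl1 from 47.2 to 69.4 and from 14 to 48.2. Wisp2 (CCN5), a matricellular protein of the Wnt-induced CCN family, had 2.77, 0.964, 2.0 and 3.56 in WT and 46.4, 24.1, 72.9 and 56.7 in KO myoblasts. It had 9.5, 3.6, 11.2 and 8.92 in WT and 129, 235, 103 and 116 in KO myotubes, all KO libraries again being higher.

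The complement proteases and an extracellular antioxidant enzyme behaved alike in order of their groups. C1s1 had 1.85, 0.964, 0 and 0.891 normalized counts in the WT myoblasts, 33.2, 14.1, 46 and 20.9 in the KO myoblasts, 17.3, 0.90, 5.58 and 10.9 in the WT myotubes and 354, 232, 211 and 178 in the KO myotubes. C1ra had 6.46, 4.82, 3.0 and 2.67 in the WT myoblasts, 27.1, 59.8, 53.8 and 37.5 in the KO myoblasts, 22.4, 7.2, 11.2 and 9.91 in the WT myotubes and 341, 136, 151 and 172 in the KO myotubes. Sod3, the extracellular superoxide dismutase, had 2.77, 6.75, 7.01 and 3.56 in the WT myoblasts, 62.1, 51.5, 56.4 and 40 in the KO myoblasts, 34.5, 24.3, 24.2 and 21.8 in the WT myotubes and 379.5, 318, 229 and 316 in the KO myotubes. For all 3 genes KO myotubes were the highest group and WT myoblasts held the lowest mean. Counting may have split reads with near copies, as 33.1% of the 31-base words near the 3′ end of C1s1 transcripts also occur in C1s2, and 25.3% of those of C1ra occur mainly in C1rb.

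The matrix proteins were Prelp, Spon2, Fbln7 and Aspn. Prelp, a small leucine-rich proteoglycan that anchors collagen to basement membrane, had 3.69, 0.964, 1.0 and 1.78 normalized counts in the WT myoblasts and 98.9, 55.6, 121 and 76.8 in the KO myoblasts, and 42.3, 35.1, 37.2 and 44.6 in the WT myotubes and 608, 500.5, 365 and 454 in the KO myotubes. Spon2, a secreted spondin-family protein, had 11.1, 11.6, 6.0 and 1.78 in the WT myoblasts and 97.1, 115, 138 and 76.8 in the KO myoblasts. It had 125, 61.2, 113 and 117 in the WT myotubes and 887, 905, 330.2 and 396 in the KO myotubes. The WT myotubes of Prelp stayed below the KO myoblasts, and those of Spon2 overlapped them. Fbln7, a fibulin, and Aspn, an asporin-type proteoglycan, differed by 3.22 and 2.05 in myoblasts and by 4.28 and 2.35 in myotubes. The KO myotubes of Fbln7 spread widely, at 106, 23.3, 30.6 and 146. Exons of Aspn overlap those of Cenpp on the other strand, and strand use in counting is not given in the sources used here.

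Of the 7 surface proteins, Perp, a tetraspan membrane protein of desmosomes and a p53 target, had 1.85, 0.964, 1.0 and 0.891 normalized counts in WT and 40.2, 39.8, 46 and 34.2 in KO myoblasts. In myotubes it had 1.73, 0.90, 2.79 and 0.991 in WT and 93.9, 73, 81.9 and 126 in KO. The WT libraries held at most 3 reads. Adam23, a disintegrin-type surface protein without protease activity, differed by 4.23 in myoblasts and 3.65 in myotubes. Npr3, the clearance receptor for natriuretic peptides, differed by 2.14 and 2.35, from a WT level of 28 ± 9.33 normalized counts (SD, n = 4) in myoblasts. The orphan receptor Mrgprf rose from 16.6 to 38.4 in KO myoblasts to 108 to 246 in KO myotubes, with WT at 1.78 to 9.01 and 7.2 to 27.6. Naalad2, a peptidase that can release glutamate from N-acetylated peptides, differed by 3.24 and 2.37.

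The adhesion receptor Adgrf5 rested on few reads, with 20.3, 54, 8.1 and 7.99 normalized counts in the KO myotubes, where replicate 2 gave most of the mean. Ly6c1, a GPI-anchored surface antigen, had 18.7 to 34 in WT and 261 to 337 in KO myoblasts, and 26 to 36.7 and 137 to 236 in WT and KO myotubes. It is uncertain as a single gene, because 43.9% of its 3′ words are shared with Ly6c2, Ly6a or other Ly6 genes. Its neighbour Ly6a, which missed the rule narrowly, was itself higher in KO cells (3.75 ± 0.21, adjusted p = 1.10e-11 in myoblasts, and 1.99 ± 0.21, adjusted p = 9.87e-07 in myotubes).

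Intracellular signalling proteins made up 6 of the 42. Nkd2, which binds Dishevelled and restrains Wnt signalling, had 3.69, 0, 1.0 and 0 normalized counts in the WT myoblasts and 51.6, 25.7, 48.6 and 32.5 in the KO myoblasts. It had 4.32, 7.2, 18.6 and 8.92 in the WT myotubes and 387, 467, 301 and 338 in the KO myotubes. The KO myotubes stood apart from all other groups, and the differences were 4.48 in myoblasts and 5.27 in myotubes. Rapgef3 (Epac1), a cAMP-activated exchange factor for Rap, differed by 2.6 and 3.57, and the inhibitory G protein subunit Gnaz by 2.41 and 2.56. The phospholipase Plcb1 differed by 2.42 and 2.07, the calcium-calmodulin kinase Camk1d by 2.16 and 3.0, and Pid1, an adaptor in insulin and lipoprotein receptor signalling, by 2.05 and 2.28.

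There were 4 enzymes of small-molecule metabolism among the members. Nnmt, which methylates nicotinamide, had 0, 0, 0 and 1.78 normalized counts in WT and 49.9, 23.2, 44.2 and 45 in KO myoblasts. In myotubes it had 2.59, 0.90, 5.58 and 0.991 in WT and 36.8, 75.9, 51.3 and 59.9 in KO, so that WT libraries were at or close to 0. Ass1, which makes argininosuccinate in arginine synthesis, had 96.9, 61.7, 75.1 and 90 in WT and 469, 452, 461 and 492 in KO myoblasts, and 68.2, 81, 68.8 and 64.4 in WT and 309.8, 359, 234 and 304 in KO myotubes. Its KO libraries were tightly grouped in myoblasts, and 35.7% of its 3′ words recur in Gm5424, so its count may be shared. The ER-membrane detoxifying enzymes Mgst1 and Ephx1, a glutathione transferase and an epoxide hydrolase, differed by 4.27 and 2.19 in myoblasts and by 3.06 and 2.45 in myotubes.

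The remaining 7 genes have traffic, cytoskeletal or less known roles. Capn6, a calpain-family protein that binds microtubules, had 52.6, 42.4, 50 and 63.3 normalized counts in WT and 331, 371, 357 and 266 in KO myoblasts, and 76, 103, 85.5 and 86.2 in WT and 461, 406, 414 and 266 in KO myotubes. Nhs and Nhsl2, related regulators of the actin skeleton, differed by 2.95 and 3.35 in myoblasts and by 2.58 and 2.04 in myotubes. Tbc1d12, of a family of Rab GTPase-activating proteins, varied from 5.99 to 51.1 in KO myotubes, its lowest KO library holding 3 reads. Tvp23a, a Golgi vesicle protein whose exons overlap Nubp1 on the other strand, Arxes2, an adipocyte-related X-linked gene, and Ccdc60, a coiled-coil protein, differed by 2.30 to 2.92 across both stages.

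**Figure D4:**
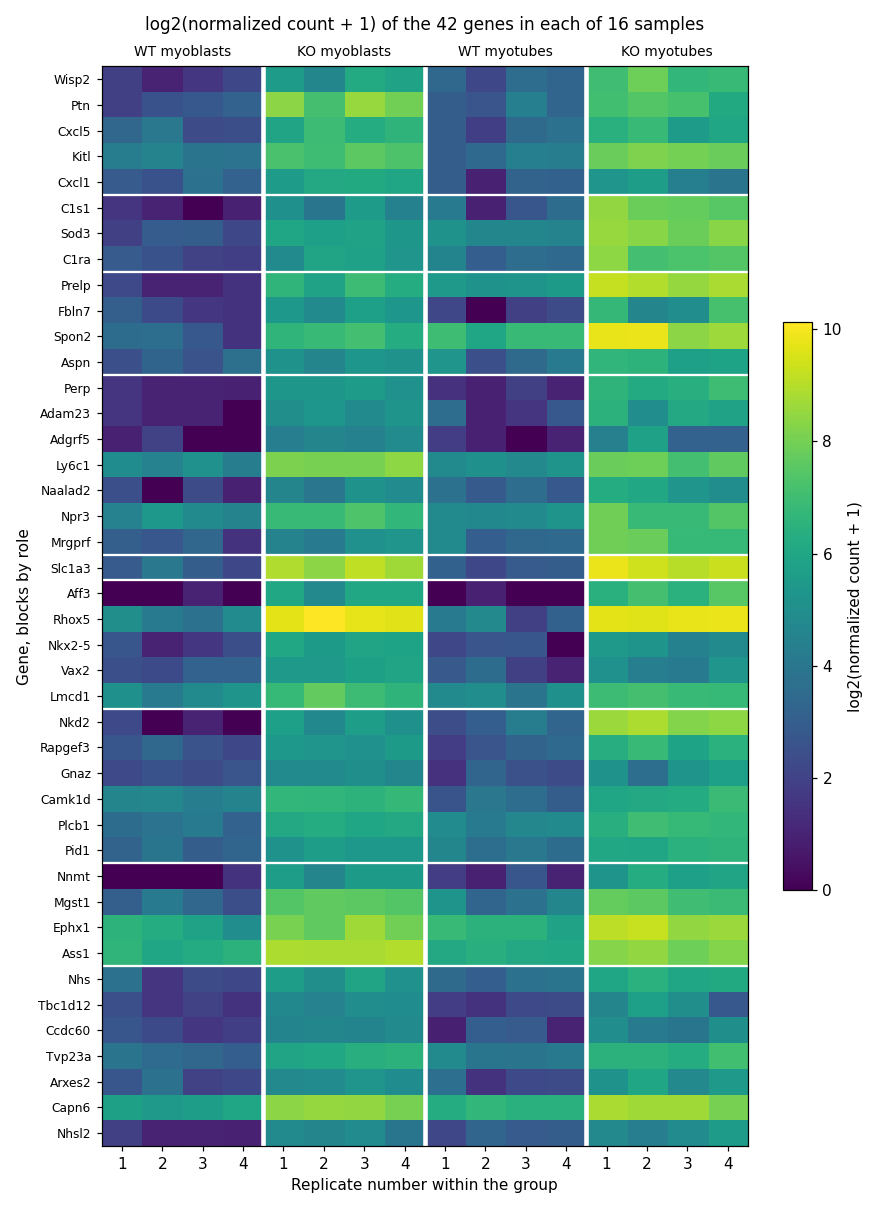
Colour gives log2(normalized count + 1) of each of the 42 genes (y axis, blocks by role) in each of the 16 samples (x axis, replicate number within its group). In every gene the 4 KO columns are brighter than the 4 WT columns of the same stage, with Rhox5 and Slc1a3 keeping a like colour in KO cells at both stages and Nkd2, Sod3, C1s1 and Prelp turning brighter in KO myotubes.

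Individual libraries were not equally high across the set. KO myotube replicate 3 was the lowest of its group for 18 of the 42 genes and the highest for none, although its depth was the largest of the 4. KO myoblast replicate 3 was the highest of its group for 19 and replicate 2 the lowest for 19, and WT myotube replicate 2 was the lowest for 21. Summed over the 42 genes, the libraries held 446 to 577 normalized counts in WT and 4816 to 5630.3 in KO myoblasts, and 697 to 913 in WT and 6221 to 8952 in KO myotubes.

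The rule did not use the difference between stages, and differentiation was tested with limma within each genotype. The rule's minimum of 20 normalized counts in both KO groups still kept out genes that are low at either KO stage. In WT cells 13 of the 42 genes rose in myotubes and 1 fell, that is 31% and 2.38% of the set, where 13.8% and 9.16% of all genes tested did so. Only 18 of the 42 reached 10 normalized counts in 4 of the 8 WT libraries. Of these 7 rose (Capn6, Mgst1, Nhs, Plcb1, Prelp, Sod3 and Spon2) and 1 fell in WT cells, where 13.9% and 9.43% of the 10282 genes that passed in WT libraries did so. Prelp and Sod3 passed there through their WT myotubes alone, with 0.964 to 3.69 and 2.77 to 7.01 normalized counts in WT myoblasts. The share of the 18 is therefore not read against the background. The other 24 were tested through their KO libraries, and the 6 of them that rose in WT cells (C1ra, C1s1, Naalad2, Nhsl2, Nkd2 and Wisp2) rest on low WT levels, so the share of all 42 in WT cells is not read against the background. In KO cells 13 rose and 2 fell, where 17.3% and 16.1% of all genes tested did so. All 42 reached the filter minimum in KO libraries. The rule chose them by their KO levels, so these shares are not read against the background. By limma voom on the recovered reads 8 rose in WT and 18 in KO cells. The median log2 change of the 42 was 0.40 in WT and 0.51 in KO cells, and that of all genes tested was -0.01 and -0.02. Because of the filter in WT cells and the rule's KO levels, these medians are a description only. In both genotypes 7 genes rose (C1ra, C1s1, Nkd2, Prelp, Sod3, Spon2 and Wisp2), 6 rose with a call in WT alone (Capn6, Mgst1, Naalad2, Nhs, Nhsl2 and Plcb1), and 6 with a call in KO alone (Aff3, Ephx1, Mrgprf, Perp, Pid1 and Rapgef3). For 20 genes no change was called in either genotype, among them Slc1a3, Rhox5, Kitl, Nnmt and Adam23. For Aff3 and Perp, with at most 3 reads in any WT library, a fall or a small rise in WT cells was not detectable at this depth.

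The largest rises in WT cells were those of Prelp, Spon2, Nkd2, Sod3 and C1s1. Prelp rose by a log2 change of 3.92 ± 0.29 (SE; adjusted p = 2.62e-09) in WT and 2.47 ± 0.29 (SE; adjusted p = 1.12e-06) in KO cells. Spon2 rose by 3.78 ± 0.4 (SE; adjusted p = 6.91e-07) in WT and 2.44 ± 0.4 (SE; adjusted p = 9.16e-05) in KO cells. Sod3 rose by 2.23 ± 0.27 (SE; adjusted p = 4.91e-06) and 2.54 ± 0.27 (SE; adjusted p = 4.15e-07). In each of these 3 genes every myotube library lay above every myoblast library of the same genotype. C1s1 rose by 2.0 ± 0.54 (SE; adjusted p = 0.0102) in WT and by 3.13 ± 0.54 (SE; adjusted p = 1.24e-04) in KO cells, and C1ra by 1.33 ± 0.37 (SE; adjusted p = 0.0131) and 2.1 ± 0.37 (SE; adjusted p = 1.71e-04). In WT cells the calls of both complement genes rest on WT myotube replicate 1: without it the adjusted p was 0.0549 for C1s1 and 0.0656 for C1ra. With all libraries kept, limma voom did not call them either (adjusted p = 0.103 and 0.137).

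In KO cells Nkd2 had the largest change. It rose by a log2 change of 3.24 ± 0.45 (SE; adjusted p = 9.90e-06) in KO and 2.45 ± 0.45 (SE; adjusted p = 4.62e-04) in WT cells, and the KO libraries did not overlap between stages. Mrgprf rose by 2.56 ± 0.44 (SE; adjusted p = 1.35e-04) in KO cells, while its change in WT cells was 1.01 ± 0.44 (SE; adjusted p = 0.103). Wisp2 rose by 1.46 ± 0.4 (SE; adjusted p = 0.011) in WT and 1.55 ± 0.4 (SE; adjusted p = 0.00482) in KO cells, and its WT call was lost with a pseudocount of 5 and by limma voom (adjusted p up to 0.158). Perp rose in KO cells by 1.18 ± 0.34 (SE; adjusted p = 0.0105) and Aff3 by 1.15 ± 0.42 (SE; adjusted p = 0.0412), while WT libraries held hardly any read of either gene at both stages. The call of Aff3 rested on several libraries, the highest adjusted p being 0.154 without KO myoblast replicate 2. The weakest calls were likewise lost without single libraries, in WT cells those of Mgst1 (adjusted p up to 0.211, without WT myotube replicate 1) and Nhs (up to 0.157, without WT myoblast replicate 2), and in KO cells those of Rapgef3 (up to 0.0709, without KO myoblast replicate 3), Pid1 (up to 0.0851, without KO myoblast replicate 1) and Ephx1 (up to 0.131, without KO myoblast replicate 2).

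A fall on differentiation was called for Ptn and Ass1 in KO cells and for Camk1d in WT cells. Ptn fell by 1.07 on the log2 scale in KO cells (SE 0.38, adjusted p = 0.0371), and its change in WT cells was 0.72 ± 0.38 (SE; adjusted p = 0.186). This call was lost without any of KO myoblast replicates 1, 3 or 4 or KO myotube replicates 1 or 4, with adjusted p up to 0.120. Ass1 fell by 0.65 in KO cells (SE 0.17, adjusted p = 0.00601), where all 4 KO myotube libraries were below all 4 KO myoblast libraries. Camk1d fell by 1.21 in WT cells (SE 0.29, adjusted p = 0.00455), and its values there were 23.1, 25.1, 18 and 22.3 normalized counts in myoblasts and 5.18, 15.3, 11.2 and 6.94 in myotubes, without overlap.

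**Figure D5:**
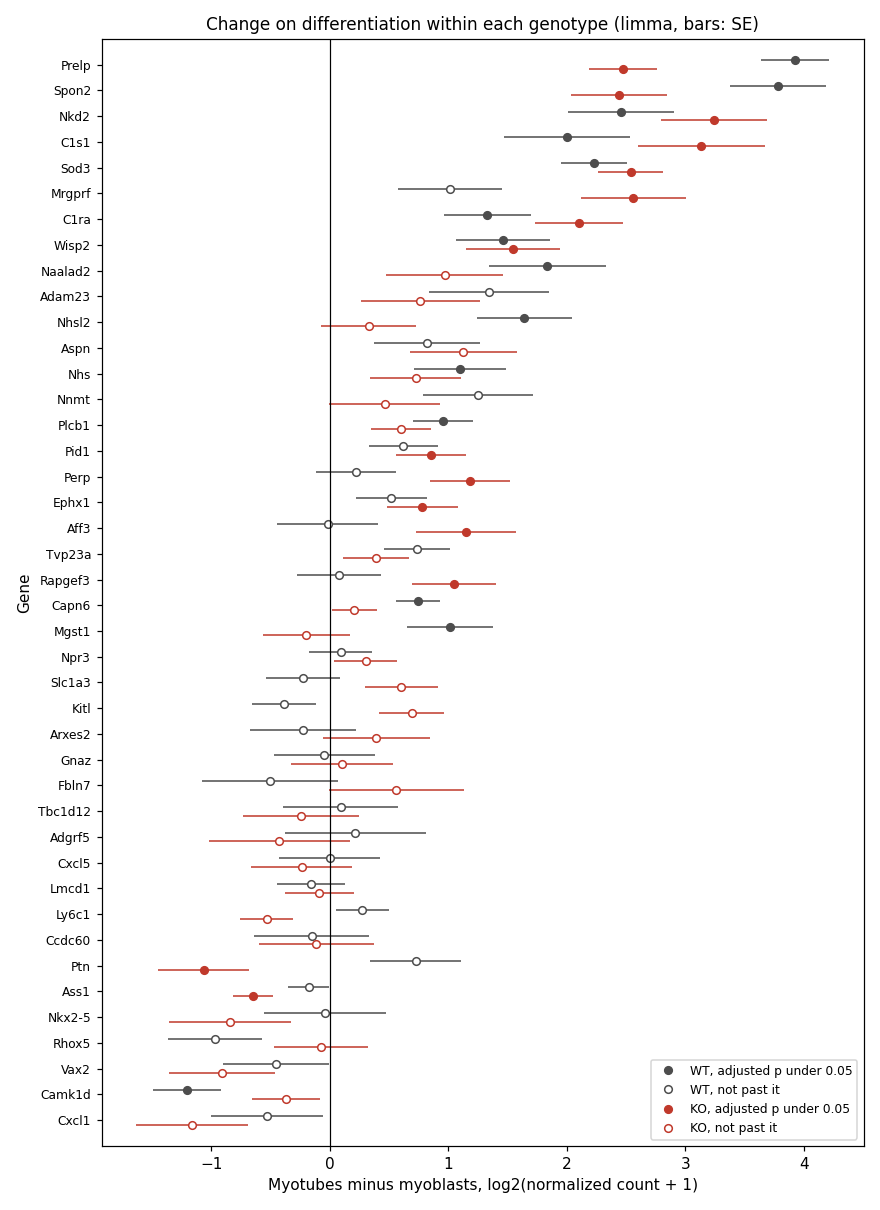
Myotube minus myoblast change in log2(normalized count + 1) (x axis) of each gene (y axis) in WT (grey) and KO cells (red), with SE bars from limma and filled points where the adjusted p was under 0.05. Prelp, Spon2, Nkd2, Sod3 and C1s1 have the 5 highest WT changes, Nkd2, C1s1, Mrgprf, Sod3 and Prelp the 5 highest KO changes, and Ptn is on opposite sides of 0 with only the KO change called.

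The difference between the change in KO and in WT cells equals the difference between the 2 genotype differences that the rule used, so it is given as a description and nothing is read from its test. It was -1.45 ± 0.41 (SE) for Prelp and -1.79 ± 0.54 for Ptn, which rose less or fell more in KO cells. The limma interaction term called none of the 42, beside 1.97% of all genes tested with a larger and 1.48% with a smaller change in KO cells. At an unadjusted p under 0.05 there were 2 and 6, and limma voom called none. Which members were called changed with the setting: Prelp with quantile normalization, a pseudocount of 0.5, a filter minimum of 50 or the replicate block, Nkd2 and C1s1 with a pseudocount of 5, and, without 1 library, Prelp (WT myoblast replicate 1, KO myoblast replicate 2 or KO myotube replicate 1) and Ptn (WT myotube replicate 2, KO myoblast replicate 2 or KO myotube replicate 2). A missed threshold does not show that the genotypes changed alike.

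Other gene lists are given beside the set as measured values. Of 19 tested genes of DNA methylation and its readers, 1 rose and 1 fell in KO myoblasts, beside 7.26% and 8.5% of all genes tested. By limma these were Apobec1 (1.5 ± 0.41, adjusted p = 0.0146) and the methyltransferase Dnmt3a (-1.44 ± 0.29, adjusted p = 0.00125), shares near the background. In KO myotubes 0 rose and 5 fell (Uhrf1, Dnmt3a, Hells, Tdg and Mbd3), beside 9.74% and 13.7% of all genes tested. The number that fell was 2 to 5 without 1 library and 0 to 5 under the other settings. It was 0 in a fit of only the 8 samples compared. Methylation itself was not measured. Most myoblast markers were lower in KO cells: 5 of 7 tested fell in myoblasts and 6 of 7 in myotubes, where 8.5% and 13.7% of all genes tested fell. Vgll2, called lower in myotubes only, passed the filter through its WT libraries alone. The list of 8 summed to 1413 to 2143 normalized counts in WT and 355 to 669 in KO myoblasts, and to 3518 to 4515 and 1348 to 1554 in myotubes. Myf5 was called at neither stage and lay higher in KO myoblasts (0.68 ± 0.27, adjusted p = 0.0955). By limma voom, in a fit of only the 8 samples compared or without KO myotube replicate 3, 1 marker was called higher there. The muscle regulator Myod1 fell by 4.81 ± 0.26 (adjusted p = 9.54e-12) in KO myoblasts and by 1.43 ± 0.26 (adjusted p = 4.97e-04) in KO myotubes, on the log2 scale.

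The 9 fibroblast and mesenchymal progenitor markers summed to 79.3 to 125 in WT and 461 to 874 in KO myoblasts, and to 112 to 238 and 447 to 482 in WT and KO myotubes. Most of the KO sum was Ly6a alone, at 447 to 851 in KO myoblasts and 240.1 to 344 in KO myotubes. The other 8 markers summed to 36 to 65.5 in WT and 9.18 to 22.6 in KO myoblasts, and to 59.4 to 148 and 138 to 232 in WT and KO myotubes. As background for the marker counts below, 7.26% of all genes tested rose and 8.5% fell in KO myoblasts, and 9.74% and 13.7% in KO myotubes. Of the 4 fibroblast markers tested, Ly6a rose at both stages, Dcn rose in myotubes (1.57 ± 0.5, adjusted p = 0.0265) and Cd34 fell at both. Tcf21 had no read in any library. Of 3 tested adipocyte markers, Pparg and Lpl rose in myoblasts and Lpl in myotubes, with Adipoq and Plin1 at 0 throughout. Pparg passed the filter through its KO libraries alone, with means of 4.28 in WT and 18.2 in KO myoblasts. The adipocyte count in myoblasts is therefore not read against the background. The cartilage factor Sox9, 1 of 2 tested, rose at both stages. Of 6 smooth muscle and pericyte markers, 1 fell in myoblasts (Tagln), and 1 rose (Pdgfrb) and 2 fell (Cspg4 and Notch3) in myotubes. Single libraries decided some of these calls: that of Dcn was lost without WT myotube replicate 2 or KO myotube replicates 1 or 3, that of Pdgfrb without WT myotube replicates 2 or 3 or KO myotube replicate 1, that of Tagln without WT myoblast replicates 3 or 4 or KO myoblast replicates 2 or 3, and that of Pparg without any 1 of 7 of the 8 myoblast libraries. Macrophage markers summed to at most 26.1 and Schwann cell markers to at most 28.5 in any library, with Adgre1, Ptprc, Sox10 and Foxd3 at 0. The part of any cell population in the members' values was not tested.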

How the data were processed

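The mRNA libraries were sequenced as single-end reads. Per the labels and the study's methods, the authors trimmed reads, aligned them to mm10 with STAR 2.6.0a and counted them per gene with HTSeq. The deposited values are log2(normalized count + 1), and their scale equals median-ratio size factors of the reads recovered from them. These whole reads were recovered from the steps between low values (100.0% of values whole within 0.01), and gave depth, the 3-read floor and limma voom. From the deposited log2 values, genes that reached 10 normalized counts in 4 or more of the 16 samples were fitted with limma 3.58.1 (R 4.3.3; 4 group means, trended empirical Bayes) and Benjamini-Hochberg adjusted over all 10767 genes; a call is an adjusted p under 0.05. Differentiation within WT, within KO and the interaction were planned; the last combines the values the rule used and is only described. Genotype contrasts from the same model were added after seeing the data, for listed genes that are not members and for Fam134b, as were the counts of genes passing the filter in WT libraries alone and of promoter windows near GENCODE starts. The members and gene lists were chosen with earlier results of these data known. Named genes were the 12 with the largest smaller difference, the 5 most changed each way per tested comparison, members in the lists, and 3 on each side of each limit; other members were given by role. Alternatives were other scalings, pseudocounts of 0.5 and 5, no filter, a minimum of 50, a replicate block, leaving out each library, only the 8 samples compared, and voom. The fit was tested on simulated data. Sequences are from RefSeq (GRCm38.p6).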

Additional observations from a re-analysis of the deposited data

Results flagged for a closer look

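In 9 of 168 groups of 4 (42 genes in 4 groups), 1 library lay far from the other 3 by Dixon's gap over range at the 95% level. For continuous, normally distributed values chance alone gives about 1 in 20 groups. This rate does not hold for groups of 0 to 3 reads, where ties and near-ties are common. All values are normalized counts. In KO cells these were Aff3 in KO myoblast replicate 2 (26.6, the others 63.9 to 66.7), which was low, and Rhox5 in KO myoblast replicate 2 (1117, the others 813 to 852), which was high. In WT cells a library with 1 to 3 reads stood out in groups otherwise near 0: Aff3 in WT myoblast replicate 3 (1.0, the others all at 0), Aff3 in WT myotube replicate 2 (0.90, the others all at 0), Perp in WT myoblast replicate 1 (1.85, the others 0.891 to 1.0), Nnmt in WT myoblast replicate 4 (1.78, the others all at 0) and Nhsl2 in WT myoblast replicate 1 (2.77, the others 0.891 to 1.0). At higher levels the WT outliers were Tvp23a in WT myotube replicate 1 (26.8, the others 13.9 to 15.9) and Mrgprf in WT myotube replicate 1 (27.6, the others 7.2 to 9.91). Without KO myoblast replicate 2 the rise of Aff3 on differentiation in KO cells was no longer called (adjusted p = 0.154). No gene of the set changed in opposite directions without overlap in both genotypes.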

How the results depend on the processing

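The rule gave 42 genes, 52 with quantile normalization, 36 with group medians, 27 with a pseudocount of 5, and 39 to 49 without 1 library. Median-ratio scaling gave the same values as deposited, and total scaling the same 42. In WT cells the count of members higher in myotubes was 8 by limma voom on recovered reads and 9 to 17 without 1 library, and the count of lower members was 2 under quantile normalization and 1 to 2 without 1 library. In KO cells the count of higher members was 18 by voom, 17 with a pseudocount of 5, 9 with no filter, and 9 to 15 without 1 library. That of lower members was 5 with a pseudocount of 5, 1 with no filter, 6 by voom, and 1 to 4 without 1 library. For the interaction, 2 members were called with a larger KO change at a pseudocount of 5 (Nkd2 and C1s1) and 0 without any 1 library. With a smaller KO change 1 (Prelp) was called under quantile normalization, a pseudocount of 0.5, a minimum of 50 and the replicate block, and 0 to 2 without 1 library. The causes were not tested. Whether replicate numbers pair the samples is not settled by these values. Deviations of same-numbered samples correlated at a mean of 0.0330, with 10 of 24 pairs over 0.1. Those of different-numbered samples correlated at a mean of -0.0108, with 17 of 72 pairs over 0.1. With the replicate block the counts were 13 higher and 1 lower in WT, 12 and 2 in KO, and 0 and 1 for the interaction. Of 29 called member changes on differentiation, 19 kept their call under all alternatives and none changed sign. The count tests edgeR and DESeq2 were not run on the recovered reads, and voom was the only test on them. Depth limits the WT values of the genes whose WT libraries all held 3 reads or fewer, 7 in myoblasts and 3 in myotubes.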
